A study of Mus musculus with 8 samples.

Results

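Genes for deubiquitylating enzymes, the proteases that take ubiquitin off other proteins, were followed through the end of male meiosis with and without HR6B. Of 47 listed genes, 46 had a value, among 18193 genes with a probe set of their own. Each gene was taken from the probe set that was annotated to it alone and had the highest mean over the arrays. Uchl3 has no value, because its probe set is annotated to several genes. Expression was measured in late spermatocytes and round spermatids from testes of male Hr6b+/+ (wild type) and Hr6b-/- (knockout) animals, all on an FVB background and 4 to 5 weeks old, in 4 groups of 2 arrays each. The deletion was present in every cell of the knockout animals, including the somatic cells of the testis. The number of mice behind each array is not given in the sources used here, and the p-values below reflect only how far these arrays differ. A signal below is the deposited log2 value put back on the linear scale, and values are listed for replicate 1 and then replicate 2 of each group. A gene is called higher or lower at an adjusted p under 0.05 from limma over 45037 probe sets. With 2 arrays against 2, an exact permutation test gives no p under 0.333.

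Besides removing ubiquitin from proteins, deubiquitylases take ubiquitin chains apart and recycle ubiquitin from the proteasome, and they oppose the conjugating enzymes and ligases that attach it. They fall into families by the fold of the catalytic domain: the ubiquitin-specific proteases (USP), the ubiquitin C-terminal hydrolases (UCH), the ovarian tumour domain proteases (OTU), the Josephin proteins, and the JAMM enzymes, which use a metal ion in place of a catalytic cysteine. In the male germ line histones H2A and H2B are ubiquitylated on the silenced sex chromosomes of meiotic cells and again when histones give way to transition proteins and protamines, and proteins are broken down on a large scale as spermatids take shape. HR6B, the product of the gene Ube2b, is a ubiquitin-conjugating enzyme, and male mice without it are infertile.

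The correlation between the 2 arrays of a group was 0.995 to 0.997 over probe sets, which do not count as replicates, and a signal of at least 100 was reached by 33.2% to 35.4% of the probe sets per array. Ube2b, the targeted gene, had signals of 2855 and 3349 in wild type and 833 and 824 in knockout spermatocytes, and of 4599.5 and 4612, then 951 and 1061 in the spermatids. The knockout arrays lay below the wild type arrays in both cell types. Of 7 round spermatid markers 7 were higher in wild type spermatids than in spermatocytes. Of 8 markers of pachytene and diplotene spermatocytes 5 were lower and 2, Ccna1 and Spag6, were higher. Of 13 Sertoli cell markers 8 were lower and 0 higher. Their summed signal was 5096 and 6136 in wild type spermatocytes and 859 and 956 in wild type spermatids. Of 4 myoid cell markers 3 were higher, and of 4 macrophage markers 2. The part of somatic cells in the stage differences was not tested. Of the deubiquitylases, 39 reached a signal of 100 on at least 4 of the 8 arrays. The other 7 were Usp11, Usp13, Usp18, Usp26, Usp36, Usp38 and Brcc3, and the signals of Usp18 and Usp26 stayed between 13.0 and 20.4 on all 8 arrays.

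Wild type round spermatids were first compared with wild type late spermatocytes, to ask how the enzymes change when meiosis ends. Of the 46 genes, 15 were higher in spermatids, 20 were lower and 11 were not called. Over all probe sets, 26% were called higher and 27.3% lower, and among the 17597 probe sets with a signal of 100 or more on at least 4 arrays 32.6% and 50%. The deubiquitylases were thus called at a rate of 76.1%, above the 53.3% of all probe sets and below the 82.5% of expressed ones. The median log2 difference was 0.02 over the deubiquitylases and 0.10 over all probe sets. Beyond a log2 difference of 1, 11 genes were higher and 13 were lower, against 10.5% and 16.9% of all probe sets. When arrays were scaled so that expressed autosomal probe sets had the same median, the median of all probe sets moved from 0.10 to 0.47, and 24 deubiquitylases were called higher and 17 lower.

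**Figure D1:**
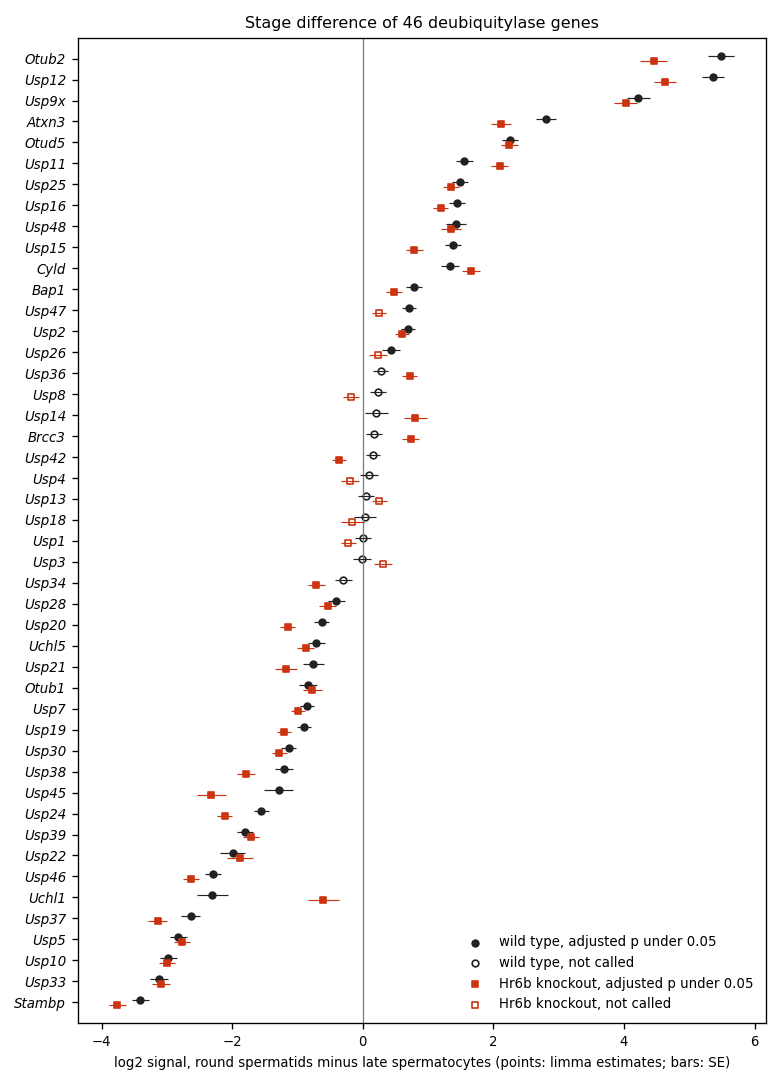
Difference in log2 signal between round spermatids and late spermatocytes for the 46 measured deubiquitylases, in wild type (circles) and Hr6b knockout cells (squares). Points are limma estimates from 2 arrays against 2, bars are standard errors and filled symbols passed an adjusted p of 0.05. The differences ran from -3.41 to 5.49 in wild type cells, and Uchl1 had -2.30 in wild type and -0.61 in knockout cells.

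Otub2 and Usp12 rose most. Otub2, an OTU protease, had signals of 157 and 131 in wild type spermatocytes and 6539 and 6335 in wild type spermatids. Usp12, a USP that is active when bound to the WD repeat protein WDR48, had 69.8 and 54.2 and then 2585 and 2455. For both genes each spermatid array lay far above each spermatocyte array, with log2 differences of 5.49 (standard error 0.20) and 5.36 (standard error 0.17). The adjusted p was 6.24e-09 for Otub2 and 2.74e-09 for Usp12. Usp9x, an X-linked USP of endosomes and the cytoskeleton, had 31.8 and 44.4 in spermatocytes and 692 and 707 in spermatids. Atxn3, the Josephin protease that trims chains bound for the proteasome and the ER degradation pathway, had 102 and 89.6 and then 722 and 614. These rises came to 4.22 and 2.80 on the log2 scale, and neither gene had overlapping groups.

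Stambp, the JAMM enzyme that takes ubiquitin off receptors at endosomes, fell most. Its signals were 1792 and 2081 in wild type spermatocytes and 176 and 188 in wild type spermatids. Usp33, a USP of the secretory pathway and of receptor recycling, had 152 and 186 and then 18.8 and 19.9 far below. Usp10, which acts on p53 and on stalled ribosomes, had 864 and 861, then 116 and 103. Usp5, which takes apart the free ubiquitin chains left after proteins are degraded, had 1356 and 1612, then 224 and 194. The log2 differences were -3.41, -3.12, -2.98 and -2.82, and all 4 genes had separate groups.

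**Figure D2:**
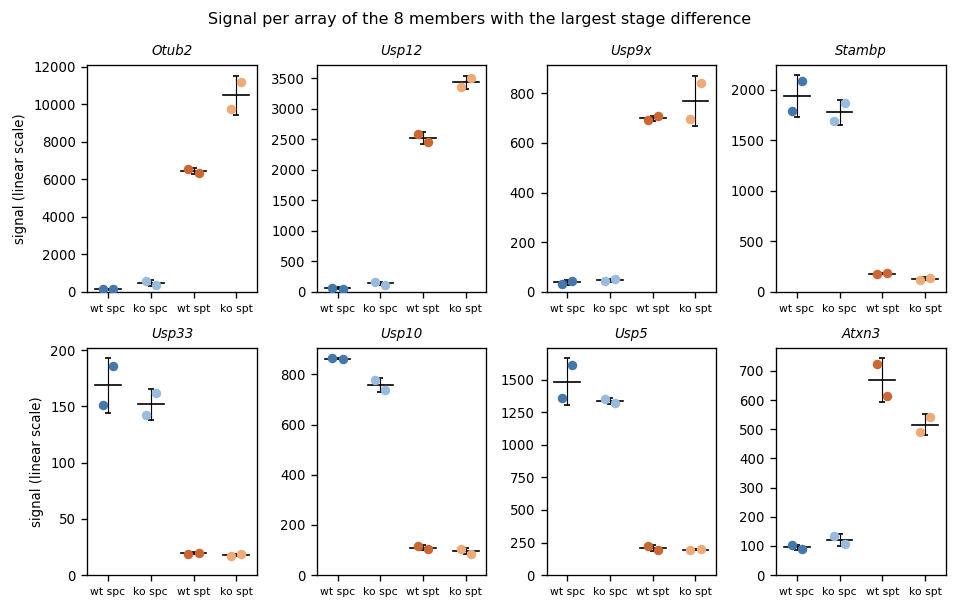
Signal on each of the 8 arrays for the 8 called deubiquitylases with the largest stage difference in wild type cells, on linear axes that start at 0 (wt, wild type; ko, Hr6b knockout; spc, late spermatocytes; spt, round spermatids). Points are arrays, horizontal lines are means and bars are SDs of 2 arrays; Otub2, Usp12, Usp9x and Atxn3 were higher on all 4 spermatid arrays and Stambp, Usp33, Usp10 and Usp5 on all 4 spermatocyte arrays.

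The promoters of Otub2, Usp12 and Stambp are shown because these genes mark the ends of the stage range. Each sequence is the 250 bases before a start site, from RefSeq on GRCm38.p6, and runs 5′ to 3′ on the gene's strand. Capitals mark TGACG, the core of the cyclic AMP response element that the spermatid factor CREM binds, found on either strand (CGTCA where it lies on the other strand). The full element TGACGTCA, which holds this core, was searched as well, and no other motif was. Otub2 has an upstream start, with the window chr12:103376644-103376893 on the plus strand, and a downstream start, with the window chr12:103388431-103388680 on the plus strand. The windows are chr5:146794957-146795206 on the minus strand for Usp12 and chr6:83572505-83572754 on the minus strand for Stambp.
Otub2, upstream start: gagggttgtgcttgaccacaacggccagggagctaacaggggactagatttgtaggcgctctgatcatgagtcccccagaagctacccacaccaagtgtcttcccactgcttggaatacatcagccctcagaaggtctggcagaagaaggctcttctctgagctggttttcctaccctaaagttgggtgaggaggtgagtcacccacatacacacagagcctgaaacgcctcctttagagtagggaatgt
Otub2, downstream start: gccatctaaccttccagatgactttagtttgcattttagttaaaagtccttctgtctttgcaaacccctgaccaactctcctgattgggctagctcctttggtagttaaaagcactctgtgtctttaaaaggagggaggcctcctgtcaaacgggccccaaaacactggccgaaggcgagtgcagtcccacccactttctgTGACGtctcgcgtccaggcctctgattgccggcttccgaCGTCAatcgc
Usp12: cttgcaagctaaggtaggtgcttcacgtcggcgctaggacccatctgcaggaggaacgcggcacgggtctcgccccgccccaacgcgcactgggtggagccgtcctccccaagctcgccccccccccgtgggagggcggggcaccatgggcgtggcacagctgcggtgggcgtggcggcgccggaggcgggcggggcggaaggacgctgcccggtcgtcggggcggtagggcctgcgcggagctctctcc
Stambp: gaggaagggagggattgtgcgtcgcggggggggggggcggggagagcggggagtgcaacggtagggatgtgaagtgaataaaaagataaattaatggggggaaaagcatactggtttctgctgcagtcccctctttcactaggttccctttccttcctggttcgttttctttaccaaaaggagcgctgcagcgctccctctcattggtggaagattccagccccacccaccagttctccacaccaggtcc
The downstream window of Otub2 held TGACG on both strands, starting at -49 and -10 from the start site, and the other 3 windows held none. Over all 32851 such windows 17.8% held it, and 16 of 41 windows of 38 deubiquitylases did. The 41 hold the downstream start of Otub2 more than once, in overlapping windows, and the unmeasured Uchl3. Base composition was not matched between these windows and all windows. The full TGACGTCA was in 1.55% of all windows and in 0 of the 41. A match is a run of letters and not a measured binding site.

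Among the enzymes that act on histones, 2 of 8 were higher in wild type spermatids and 3 were lower. The shares were 26% and 27.3% over all probe sets, and 32.6% and 50% over the expressed ones. Usp16, which removes ubiquitin from histone H2A, rose by 1.44 on the log2 scale, and Bap1, the catalytic subunit of the Polycomb-linked H2A deubiquitylase, by 0.78. Usp22, the H2B deubiquitylase of the SAGA coactivator, had a log2 difference of -2.00, and Usp21 and Usp7 had -0.76 and -0.85. Usp3, Usp36 and Usp42 were not called, with differences of -0.01, 0.27 and 0.15. Enzymes that act on histones thus lay on both sides of the stage comparison, and another probe set of Usp7 had 2.12.

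Of 8 enzymes with roles in DNA repair, 2 were higher and 4 were lower, against 26% and 27.3% of all probe sets. Among expressed probe sets 32.6% and 50% were. Usp48 rose by 1.43 and Usp47 by 0.71, which turned to -0.64 when all probe sets of a gene were averaged, while Usp10 and Usp45, which acts on the XPF-ERCC1 nuclease, had -2.98 and -1.29. Usp1, the partner of WDR48 in the Fanconi anaemia pathway, did not pass the test, at 0.00 (95% interval -0.27 to 0.27). Of the other WDR48-bound enzymes, Usp12 rose by 5.36 and Usp46 had -2.29. Usp12 and Usp46 encode close paralogs, and on the probe sets used for them the signals moved in opposite directions. The other probe sets of Usp12 had 1.11 and -0.85. Usp46 had 1132 and 1256 in wild type spermatocytes and 249 and 239 in wild type spermatids.

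Enzymes of other roles were divided as well. Beside these small groups stand 26% higher and 27.3% lower of all probe sets, and 32.6% and 50% of expressed ones. Of 6 that act at endosomes and in membrane traffic, Usp2 and Usp9x were higher and Stambp, Usp20 and Usp33 lower. At mitochondria and the ER, Atxn3 and Usp25 rose by 2.80 and 1.48, and Usp30, the brake on mitophagy, and Usp19 had -1.14 and -0.90. In innate immune and growth factor signalling 4 of 7 were higher and 0 were lower. They were Otud5, Usp11, Usp15 and Cyld, which encodes a tumour suppressor that trims linear and K63-linked chains, with 2.26, 1.56, 1.38 and 1.34. The directions of Usp15 and Cyld turned to -0.26 and -0.16 under the same averaging. Usp39, a splicing factor without protease activity, and Usp37, an enzyme of the cell cycle, were both lower, at -1.80 and -2.64. Usp24 and Usp38 were lower too, at -1.55 and -1.21.

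Uchl5 and Usp14 are the deubiquitylases that ride on the proteasome. Uchl5 had signals of 3295 and 3956 in wild type spermatocytes and 2296 and 2112 in wild type spermatids, and 3700.3 and 3789, then 1949 and 2142 in the knockout. The spermatid arrays were lower in both genotypes, with log2 differences of -0.71 and -0.87. Usp14 had a log2 difference of 0.21 in wild type cells, which did not pass the test, and 0.80 in knockout cells, which did. Its other 3 probe sets had -0.52, -0.59 and -1.88 in wild type cells, all called lower, and -0.66, -0.24 and -1.57 in knockout cells, called lower for the first and last. When the 4 were averaged Usp14 was called lower in both genotypes, so its direction depended on the probe set.

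The 5 X-linked members were Usp9x, Usp11, Usp26, Otud5 and Brcc3, and X-linked genes are silenced in late spermatocytes and partly come back in spermatids. In wild type cells 4 of the 5 were higher in spermatids and 0 were lower, against 36.4% and 9.94% of the 1127 X-linked probe sets. Otud5, an OTU protease of innate signalling, had signals of 69.1 and 84.1 in spermatocytes and 360.5 and 368 in spermatids. Usp11, a paralog of the autosomal Usp4 and Usp15, had 23.8 and 23.1, then 62.6 and 75.9. In neither gene did the stages overlap. Usp26, expressed in the testis, was called with a difference of only 0.43, from 14.0 and 13.0 to 16.2 and 20.2 and far under a signal of 100 on every array. Brcc3, the K63-specific JAMM enzyme of the BRCA1-A complex, had 60.1 and 54.0, then 62.7 and 66.0, and was not called. In knockout cells Usp9x had 42.8 and 51.6 in spermatocytes and 696 and 840.3 in spermatids, and Otud5 had 84.0 and 82.7, then 406 and 385. Usp11 had 18.7 and 17.2, then 79.6 and 74.0, Brcc3 had 50.5 and 52.4, then 92.6 and 78.7, and Usp26 had 13.6 and 14.8, then 17.6 and 15.8. Knockout spermatids lay above knockout spermatocytes for all 5 genes, and 4 were called higher and 0 lower, against 50% and 5.77% of X-linked probe sets. On the probe sets used for them, none of the 5 was called between knockout and wild type in either cell type. Of X-linked probe sets 3.19% and 1.06% were higher and lower in knockout spermatocytes and 9.14% and 1.24% in knockout spermatids. Another probe set of Usp9x, which reached a signal of 100 on 0 arrays, was called lower in knockout spermatids, at -0.62. In spermatocytes their log2 differences between knockout and wild type ran from -0.38 for Usp11 to 0.32 for Usp9x (adjusted p = 0.241 and 0.572 from limma). In spermatids Brcc3 had the largest, at 0.41 (adjusted p = 0.0547 from limma), and it passed the test after quantile normalization and under the scaling to equal autosomal medians.

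The stage comparison was repeated in knockout cells, which share no array with the wild type comparison. There 16 deubiquitylases were higher in spermatids and 22 were lower, against 34.2% and 28.7% of all probe sets. Among expressed probe sets 30.5% were higher and 55.1% lower. Beyond a log2 difference of 1, 10 deubiquitylases were higher and 15 lower, against 10.6% and 18.6% of all probe sets. Under the scaling to equal autosomal medians, 24 were higher and 16 lower, beside 31211 and 8684 of all 45037 probe sets. Of the calls, 33 were shared with wild type cells in the same direction and 0 in the opposite one, which was 94.3% of the wild type calls and 86.8% of the knockout calls. Over all probe sets the shares were 86.4% and 73.1%. Usp26 and Usp47 passed the test in wild type but not in knockout cells, and Usp14, Usp34, Usp36, Usp42 and Brcc3 in knockout but not in wild type cells. With probe sets averaged Usp47 was called lower in both genotypes, Usp14 was called lower in knockout cells at -0.42 and Usp36 had -0.17. Usp42, called lower here, had 0.095 after cyclic loess and 0.24 under equal autosomal medians. For none of these 7 did the test of the difference between the genotypes pass. Those that rose beyond 1 were Usp12 (4.63), Otub2 (4.45), Usp9x (4.03), Otud5 (2.24), Atxn3 (2.11), Usp11 (2.10), Cyld (1.66), Usp25 (1.36), Usp48 (1.35) and Usp16 (1.19). Those that fell beyond 1 included Stambp (-3.76), Usp37 (-3.14), Usp33 (-3.09), Usp10 (-3.00), Usp5 (-2.77), Usp46 (-2.63), Usp45 (-2.32) and Usp24 (-2.12). The others were Usp22 (-1.88), Usp38 (-1.79), Usp39 (-1.71), Usp30 (-1.28), Usp19 (-1.21), Usp21 (-1.18) and Usp20 (-1.15).

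A gene can have several probe sets, made for different stretches of its transcripts, and 36 of the 46 genes did. In wild type cells 10 of these 36 had probe sets called in opposite directions between the stages, against 13.2% of all 9010 genes with several probe sets. The 36 genes had a median of 2.5 probe sets and the 9010 genes a median of 2, and the counts are not matched for this. The 10 genes were Usp2, Usp7, Usp9x, Usp12, Usp15, Usp20, Usp45, Usp47, Usp48 and Cyld. Usp12 had a log2 difference of 5.36 on the probe set used for it and of -0.85 on another. Usp45 had -1.29 and 2.19, Usp48 had 1.43 and -2.21, and Cyld had 1.34 and -2.07. For Usp7 the values were -0.85 and 2.12. The rise of Usp9x was seen on the chosen probe set, at 4.22, while its other 6 lay between -0.78 and 0.59. In knockout cells 12 of the 36 genes had such probe sets, against 15.2% of all genes with several. They were Usp2, Usp7, Usp9x, Usp12, Usp14, Usp15, Usp16, Usp36, Usp45, Usp48, Atxn3 and Cyld. Atxn3 had 2.11 on the probe set used for it and -0.75 on another, and Usp16 had 1.19 and -0.54. Between knockout and wild type spermatids 0 had, against 0.766%. For these genes the array shows different stage patterns on different probe sets, and whether these stand for different transcripts was not tested.

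**Figure D3:**
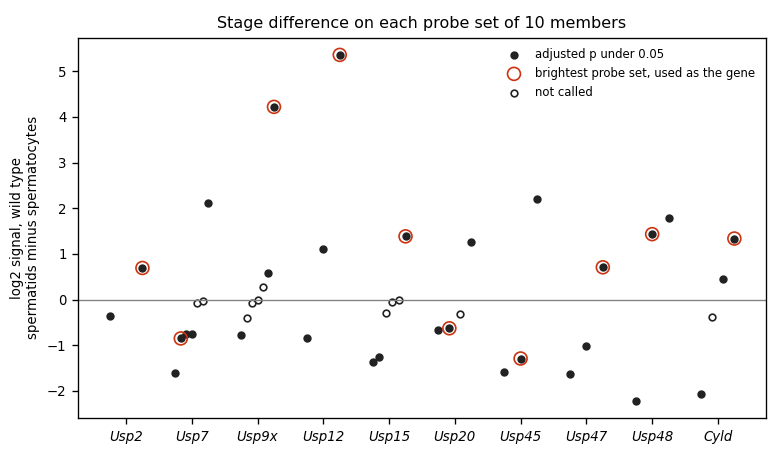
Log2 difference between wild type spermatids and spermatocytes on every probe set of the 10 deubiquitylases whose probe sets were called in opposite directions. Each point is a probe set (2 arrays against 2), filled points passed an adjusted p of 0.05 and red rings mark the probe set that stands for the gene elsewhere in the text. Every gene shown has filled points above and below 0.

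In late spermatocytes, where the sex chromosomes are silenced, few deubiquitylases differed between knockout and wild type. Of the 46 genes 2 were higher in the knockout, Otub2 and Usp12, and 0 were lower, against 1.18% and 0.413% of all probe sets and 2.79% and 0.506% of the expressed ones. Before adjustment 6 genes had a p under 0.05 from limma, beside 11.05% of all probe sets and 17.3% of the expressed ones. Otub2 had signals of 606 and 376 in knockout and 157 and 131 in wild type spermatocytes. Usp12 had 161 and 118 in knockout and 69.8 and 54.2 in wild type. For both genes each knockout array lay above each wild type array, replicate 1 of the knockout was the highest, and all 4 stayed far below the spermatid arrays. In limma Otub2 rose by 1.73 on the log2 scale (standard error 0.20, adjusted p = 0.00326) and Usp12 by 1.17 (standard error 0.17, adjusted p = 0.00849).

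Markers of late spermatids moved with these values. All 8 of a list of 8 (Tnp1, Tnp2, Prm1, Prm2, Cabs1, Oxct2a, Odf1 and Smcp) were higher in knockout spermatocytes, with a median log2 fold change of 2.23. Their summed signal was 32884 and 23436 on the knockout spermatocyte arrays, highest on replicate 1, and 8355 and 5148 in wild type spermatocytes, against 129731 to 172805 on the spermatid arrays. Of 7 round spermatid markers 2 were called higher, 6 had a positive and 1 a negative log2 fold change, and the median was 0.76. Their part in the values of Otub2 and Usp12 was not tested. The second Otub2 probe set, which lay 3.21 higher in wild type spermatids, had a knockout difference of 0.20 in spermatocytes and was not called, and Usp9x, which rose by 4.22 with the stage, had 0.32 (adjusted p = 0.572 from limma). In a fit of the 4 spermatocyte arrays alone 0 genes were called, and Usp12 was not called without replicate 1 of the knockout spermatocytes.

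**Figure D4:**
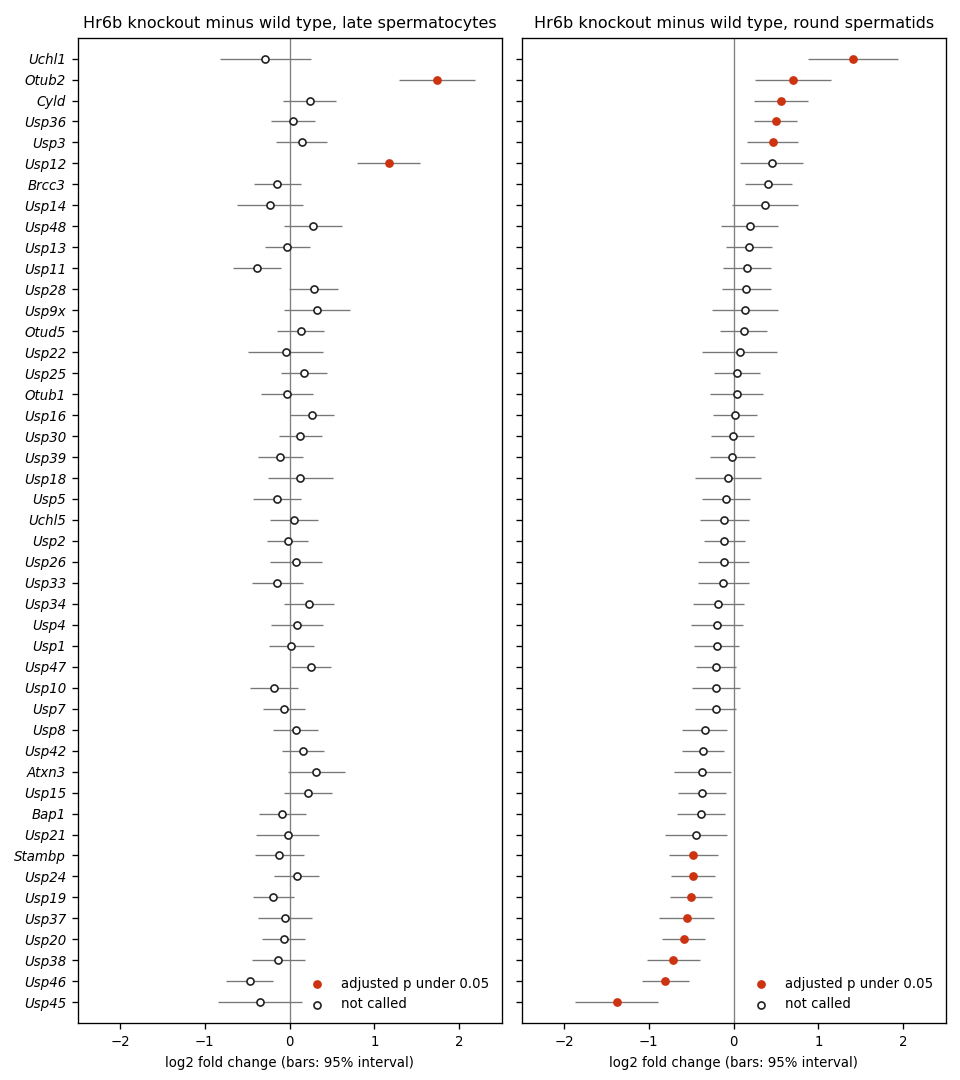
Log2 fold change between Hr6b knockout and wild type for the 46 deubiquitylases in late spermatocytes (left) and round spermatids (right), ordered by the value in spermatids. Points are limma estimates from 2 arrays against 2, bars are 95% intervals and filled points passed an adjusted p of 0.05: 2 genes in spermatocytes, and 5 higher and 8 lower in spermatids.

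In round spermatids 5 deubiquitylases were higher in the knockout and 8 were lower, and 33 were not called. Over all probe sets 4.83% were higher and 9.63% lower, and among expressed probe sets 6.09% and 20.8%. The share of called deubiquitylases, 28.3%, was thus near that of expressed probe sets, 26.9%. The median log2 fold change was -0.11 over the deubiquitylases, 0.02 over all probe sets and -0.15 over the expressed ones. The split into higher and lower depended on the scaling. It was 6 and 3 after cyclic loess and 6 and 4 after quantile normalization. It was 8 and 4 under the scaling to equal autosomal medians, which moved the median of all probe sets to 0.23. In the same order, 2476 and 2478, 2666 and 3118, and 8472 and 2261 of all 45037 probe sets were higher and lower. Without replicate 1 of the knockout spermatids 2 genes were higher and 2 lower, without its replicate 2 these were 2 and 5, without replicate 1 of the wild type spermatids 2 and 3, and without its replicate 2 they were 1 and 4. Fewer cells of a type and less RNA per cell cannot be told apart in such samples.

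Usp45, Usp46 and Uchl1 were called under all 17 alternatives, and each of the other 10 genes lost its call in at least 1 fit without an array. Usp45 had signals of 45.4 and 74.5 in knockout and 176 and 130.0 in wild type spermatids. Its spermatocyte signals were 288 and 293 in the knockout and 392 and 349 in wild type. The knockout arrays were the lower ones in both cell types, and the difference in spermatids was -1.38 on the log2 scale (standard error 0.22, adjusted p = 0.0033 from limma). A second probe set of Usp45 had -1.78, and the third, which rose with the stage, had 0.21 and was not called. Usp46 had 129.9 and 149.6 in knockout and 249 and 239 in wild type spermatids. In knockout spermatocytes it had 904 and 821, below both wild type arrays, but the difference of -0.47 did not pass the test (adjusted p = 0.123 from limma). In spermatids it was -0.81 (standard error 0.12, adjusted p = 0.00278 from limma), and -0.58 on its second probe set. The sister gene Usp12 had 3359 and 3507 in knockout spermatids, above the wild type arrays. This difference of 0.45 did not pass the test (adjusted p = 0.113 from limma). It did after cyclic loess, under equal autosomal medians and with the 4 spermatid arrays alone. The other probe sets of Usp12 had -0.33 and -0.42, and neither was called. Usp46 and Usp12 share the activator WDR48, and Wdr48 itself was called lower in knockout spermatids, with a log2 fold change of -0.43, as was Wdr20, a further subunit of both complexes, with -0.58.

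**Figure D5:**
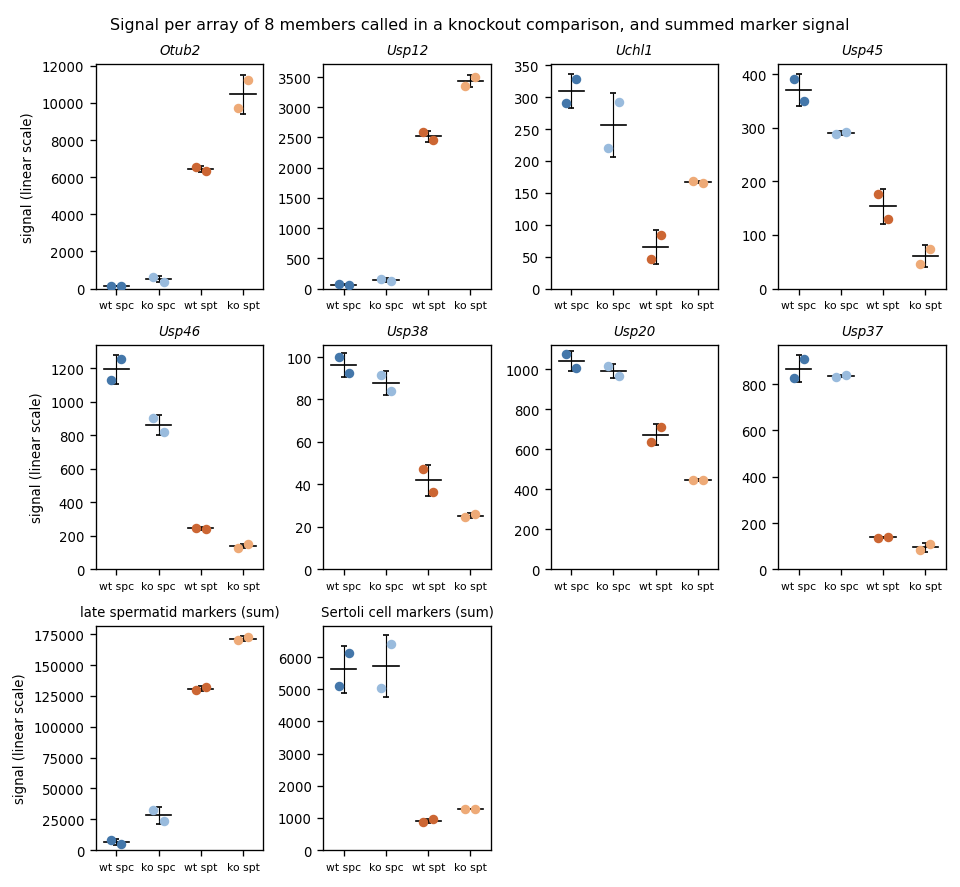
Signal on each array for 8 deubiquitylases called in a knockout comparison, and the summed signal of late spermatid and Sertoli cell markers, on linear axes that start at 0 (wt, wild type; ko, Hr6b knockout; spc, late spermatocytes; spt, round spermatids). Points are arrays, lines are means and bars are SDs of 2 arrays. Uchl1 was higher on both knockout than on both wild type spermatid arrays, Usp45, Usp46, Usp38, Usp20 and Usp37 were lower, and the late spermatid marker sum was 8355 or less in wild type and 23436 or more in knockout spermatocytes.

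The other 6 genes that fell lay in several roles. Usp38 had 24.5 and 26.2 in knockout and 47.2 and 36.6 in wild type spermatids, and 91.7 and 83.8 against 100.1 and 92.3 in the spermatocytes. Usp20, which acts on receptor recycling, had 445 and 449 against 636 and 712 in spermatids, and 1016 and 969 against 1075 and 1005 in spermatocytes. Their spermatid groups did not overlap, with -0.71 for Usp38 and -0.59 for Usp20 on the log2 scale (adjusted p = 0.00898 and 0.00813 from limma). Usp37, which acts on cyclin A at the entry into S phase, had 81.9 and 109 against 137 and 141 in spermatids, and 832 and 838 against 825 and 909 in spermatocytes. Usp19, an enzyme anchored in the ER, had 653 and 649 against 898 and 948, and 1472 and 1546 against 1680.1 and 1770.4. Both were lower on each knockout spermatid array, with -0.56 and -0.50 (adjusted p = 0.0298 and 0.0134 from limma). Usp24, a very large USP, had 357 and 389 against 555 and 486 in spermatids, and 1657 and 1575 against 1530.4 and 1519 in spermatocytes. Stambp had 123 and 140.1 against 176 and 188, and 1688 and 1864 against 1792 and 2081. These last differences were -0.48 and -0.48, with adjusted p = 0.0239 and 0.0359 from limma. Both lost the call under cyclic loess, quantile normalization and equal medians, Usp19 did as well, Usp20 under the former 2 and Usp37 under cyclic loess and equal medians. Other probe sets of Usp20, Usp24 and Usp37 were also called lower, with log2 values of -0.54 for Usp20, -0.59 and -0.82 for Usp24 and -0.66 for Usp37. Further ones were not called, at -0.68 and -0.02 for Usp20 and 0.12 for Usp24. Nor were the others of Usp19, at -0.24, 0.03 and 0.05, and of Stambp, at -0.09. Wild type spermatid arrays enter both this comparison and the wild type stage comparison, in which the stage differences were -1.29 for Usp45, -2.29 for Usp46, -1.21 for Usp38, -0.63 for Usp20, -2.64 for Usp37, -0.90 for Usp19, -1.55 for Usp24 and -3.41 for Stambp.

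Uchl1 rose most in knockout spermatids. It encodes an abundant UCH of neurons that in the testis is known from spermatogonia and Sertoli cells. Its signals were 168 and 165 in knockout and 46.8 and 84.0 in wild type spermatids, and 221 and 292 against 291 and 329 in the spermatocytes. Both knockout spermatid arrays lay above both wild type arrays, while the spermatocyte groups overlapped. The fold change in spermatids was 1.41 on the log2 scale (standard error 0.24, adjusted p = 0.00441 from limma), and that in spermatocytes -0.28 (adjusted p = 0.771 from limma). Of 13 Sertoli cell markers 3 were also higher in knockout spermatids, Cldn11, Amhr2 and Cst12, with a median log2 fold change of 0.49 over the list. Their summed signal was 1283 and 1273 in knockout and 859 and 956 in wild type spermatids, against 5027 to 6394 on the spermatocyte arrays. Of the 13 markers 11 had a positive log2 fold change in knockout spermatids and 2 a negative one. A mean signal of 100 was reached by 5 of them in the spermatocytes of each genotype and by 3 in the spermatids of each. Of 8 markers of spermatogonia and early spermatocytes 1 was higher, Sohlh1, and the sum was 509 and 520 against 443 and 466. Of 4 macrophage markers Adgre1 was higher, and 0 of 4 Leydig cell and 0 of 4 myoid cell markers were. Their part in the rise of Uchl1 was not tested.

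Otub2, Cyld, Usp36 and Usp3 were the other genes that rose. Otub2 had 9735 and 11211 in knockout and 6539 and 6335 in wild type spermatids. Cyld had 205 and 251 against 166 and 143 in spermatids, and 73.3 and 70.6 against 56.6 and 65.8 in spermatocytes. Usp36, a nucleolar enzyme, had 111 and 102 against 78.8 and 71.9, and 61.8 and 66.9 against 63.0 and 61.8. All 3 were higher on each knockout spermatid array, by 0.70, 0.56 and 0.49 on the log2 scale (adjusted p = 0.045, 0.0272 and 0.0188 from limma). Usp3, which removes ubiquitin from H2A and H2B, had 501 and 607 against 417 and 386 in spermatids, and 440.2 and 452 against 372 and 439 in spermatocytes. The difference of 0.46 had an adjusted p of 0.0491 from limma and was lost in 9 of 17 alternatives. Late spermatid markers were 2 of 8 higher in knockout spermatids, with sums of 169971 and 172805 against 129731 and 132194 in wild type, beside which the rise of Otub2 was not tested. When all probe sets of a gene were averaged, Uchl1, which has 1 probe set, was the only gene of these 5 called higher.

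The knockout effect in spermatids was then set against that in spermatocytes. In limma over all 8 arrays it differed for Uchl1, by 1.70 on the log2 scale (standard error 0.34, adjusted p = 0.0272 from limma for the interaction). On the probe sets used for them, 0 genes had a lower effect in spermatids at that threshold. Over all probe sets 1.46% had a higher effect in spermatids and 3.14% a lower one, and 17 of the 46 genes had an unadjusted p under 0.05, beside 22.1% of all probe sets and 34.9% of the expressed ones. For Usp45 and Usp46, called in spermatids, the interaction was -1.03 and -0.34 (adjusted p = 0.0889 and 0.295 from limma), and for Otub2 it was -1.04 (adjusted p = 0.0683 from limma). On the probe sets used for them, a difference between the cell types was therefore not shown for these 3 in the main fit. Otub2 passed with an intensity trend and without replicate 2 of the knockout spermatocytes. Usp45 passed with probe sets averaged and without replicate 2 of the knockout spermatids. Another probe set of Usp45 passed in the main fit, at -1.39 (adjusted p = 0.00765 from limma). The one that rose with the stage had 0.04 and was not called. The other probe sets of Usp46 and Otub2, at -0.17 and 0.01, were not called either. A lower effect in spermatids was called for Usp20, Usp24, Usp42 and Usp47 with a filter on signal, for Usp8, Usp15, Usp42, Usp47 and Otub2 with an intensity trend, and for Usp8, Usp12, Usp45 and Usp47 with probe sets averaged. Under equal autosomal medians Usp11 and Brcc3 were called besides Uchl1, with a higher effect in spermatids. The interaction of Uchl1 was lost in 6 of the 8 fits without 1 array and kept without replicate 1 of the wild type spermatocytes or replicate 2 of the wild type spermatids.

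Deubiquitylases outside the list were counted for comparison. Of 34 further genes with a value, 6 were higher and 17 lower in wild type spermatids than in spermatocytes, against 26% and 27.3% of all probe sets and 32.6% and 50.0% of the expressed ones. In knockout spermatids 0 were higher and 9 lower, against 4.83% and 9.63% of all probe sets and 6.09% and 20.8% of the expressed ones. There 19 had an unadjusted p under 0.05, beside 28.2% of all and 45.3% of the expressed probe sets. Usp50, a USP without catalytic activity, was the further gene called in knockout spermatocytes, with a log2 fold change of 1.26. Otulin, which cleaves linear chains, Vcpip1, a partner of the p97 ATPase, and Yod1, an OTU enzyme of the ER degradation pathway, had -0.92, -0.88 and -0.79 in spermatids.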

How the data were processed

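Total RNA of isolated late spermatocytes and round spermatids was hybridized to Affymetrix Mouse Genome 430 2.0 arrays, 8 in all. Cells had been separated by sedimentation at unit gravity and Percoll gradients. The deposited values are log2 expression per probe set, which the authors background-corrected, normalized and summarized with RMA, and they were used without further normalization. RMA compresses small differences at low signal, and an array has no read depth, so the number of arrays limits the precision.

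Probe sets were named through the platform annotation and current symbols: 34945 had 1 gene, 932 several and 9160 none, and 64 control probe sets were left out. The 47 members and all gene lists were chosen with earlier results of these data known. A mean for each of 4 groups was fitted to all 8 arrays with limma 3.58.1 in R 4.3.3, with 4 residual and 5.85 prior degrees of freedom, and p-values were adjusted by Benjamini-Hochberg over 45037 probe sets. The design matrix of the authors is not given in the sources used here. The fit was tested on simulated data. Members called in a comparison were named, in the stage comparisons beyond a log2 difference of 1. Values per array were given for members called between the genotypes, for the 8 with the largest stage difference, and for X-linked and UCH members. Alternatives changed the scaling (cyclic loess, quantile, equal medians of expressed autosomal probe sets), the arrays in the fit, the replicate block, a signal filter, the variance trend and the probe sets per gene. Promoters came from RefSeq windows on GRCm38.p6.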

Additional observations from a re-analysis of the deposited data

Results flagged for a closer look

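In the main fit the knockout effect on Uchl1 differed between the cell types (adjusted p = 0.0272 from limma's interaction term). The effect in spermatids minus that in spermatocytes was 1.70 on the log2 scale. In the spermatid comparison alone, 2 of 2 knockout arrays were higher, and wild type spermatids had a mean signal of 65.4 (SD 26.3). The interaction was called in 10 of 16 alternatives and lost only in fits without 1 array. This difference between the cell types is given as a value and its cause was not tested.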

How the results depend on the processing

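With equal medians of expressed autosomal probe sets, 24 deubiquitylases were higher in wild type spermatids than in spermatocytes, beside 27595 of all 45037 probe sets. In knockout against wild type spermatids 8 were higher and 4 lower, beside 8472 and 2261 of all probe sets. A higher knockout effect in spermatids than in spermatocytes was called for 3, beside 2423 of all probe sets. The number lower in knockout spermatids was 3 after cyclic loess, 4 after quantile normalization and 5 with the 4 spermatid arrays alone, and the number higher was 1 with all probe sets of a gene averaged. With the 4 spermatocyte arrays alone 0 were higher in knockout spermatocytes. The number with a lower knockout effect in spermatids was 4 with a filter on signal, 5 with an intensity trend and 4 with probe sets averaged. Averaging reversed the stage difference of Usp15 (-0.26), Usp47 (-0.64) and Cyld (-0.16) in wild type cells, with Usp15 and Usp47 then called lower. In knockout cells it reversed those of Usp2 (-0.036), Usp14 (-0.42), Usp15 (-0.25), Usp36 (-0.17) and Cyld (-0.044), with Usp14 and Usp15 then called lower. In knockout cells Usp28 and Usp42 turned to 0.043 and 0.095 after cyclic loess and to 0.065 and 0.24 with equal medians. The cause was not tested.

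In fits without 1 of the 8 arrays, the count of higher and lower genes ran from 14 to 15 and 19 to 20 for the stage in wild type, 16 to 17 and 20 to 22 for the stage in knockout, 1 to 2 and 0 to 0 for knockout spermatocytes, 1 to 5 and 2 to 9 for knockout spermatids, and 0 to 1 and 0 to 1 for the difference between the cell types. A group left with 1 array is assumed to vary like the others. Arrays with the same replicate number showed little shared deviation (correlations of deviations from -0.13 to 0.031), which cannot show whether they were prepared together. With the replicate number as a block, 15 and 20, 16 and 22, 2 and 0, 4 and 8, and 1 and 0 genes were higher and lower in the same 5 comparisons. With the numbers of the wild type spermatids crossed, a pairing chosen after seeing the data, 6 were higher and 9 lower in knockout spermatids.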

Other observations

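Besides the probe sets that stand for the genes, the deubiquitylases had 75 others. In knockout spermatids 12 of these 75 were called lower and 0 higher, against 9.63% and 4.83% of all probe sets, and in knockout spermatocytes 0 were called. Usp2, Usp7, Usp8, Usp9x, Usp16 and Usp47 were not called on the probe set used for them but had another one called lower in knockout spermatids. The log2 fold changes on these were -0.44 for Usp2, -0.50 for Usp7, -0.62 for Usp9x, -0.55 for Usp16 and -0.56 for Usp47. Usp8, which acts on receptors at endosomes, had -1.07, from a mean signal of 83.0 in wild type to 39.6 in knockout spermatids. This probe set of Usp9x reached a signal of 100 on 0 arrays. The probe sets of a gene were not adjusted for one another, and the list was put together after the values were seen.

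Among the binding partners of the deubiquitylases, 13 of 18 listed genes had a value. In wild type cells 4 were higher in spermatids and 7 lower, against 26% and 27.3% of all and 32.6% and 50% of expressed probe sets. In knockout spermatids 1 was higher and 3 were lower, against 4.83% and 9.63% of all and 6.09% and 20.8% of expressed probe sets. In knockout spermatids Abraxas1, the scaffold of the BRCA1-A complex that holds Brcc3, was higher with a log2 fold change of 0.71, and Abraxas2, the scaffold of the cytoplasmic Brcc3 complex, was lower with -0.58.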
